A study of Mus musculus with 24 samples.

Results

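Cadherins and catenins, the adhesion receptors of the cell surface and the proteins that tie them to the cytoskeleton, were followed across mouse bladder tumors as 10 genes taken by name from the 53465 genes of the table. The 7 cadherins were Cdh1 (E-cadherin), Cdh3 (P-cadherin), Cdh2 (N-cadherin), Cdh4 (R-cadherin), Cdh6 (K-cadherin), Cdh11 (OB-cadherin) and Cdh13 (T-cadherin). The 3 catenins were Ctnna1 (alpha-catenin), Ctnnb1 (beta-catenin) and Ctnnd1 (p120-catenin). RNA was sequenced from 24 tumors, 3 of each of 8 lines. The lines, called BURP, began as bladder tumors of C57BL/6NTac mice that drank water with 0.1% of the carcinogen N-butyl-N-(4-hydroxybutyl)-nitrosamine (BBN) from 8 weeks of age for up to 36 weeks, and they were passaged under the skin of untreated hosts of the same strain and sex with an intact immune system. Of the basal/squamous (Ba/Sq) lines, those of male origin were BURP-12BaSq, BURP-17BaSq and BURP-18BaSq. Those of female origin were BURP-21BaSq, BURP-24BaSq and BURP-25BaSq. The stroma-rich line BURP-16SR and the neuroendocrine-like line BURP-19NE both came from male mice. Each line descends from 1 primary tumor, so the 3 tumors of BURP-16SR or BURP-19NE describe 1 line each and p-values measure the spread between tumors. Host cells grow into every tumor, and in such bulk RNA fewer cells of a type and less RNA per cell cannot be told apart.

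A classical cadherin holds neighbouring cells together through its outer domains and binds catenins with its tail. Beta-catenin binds the tail and recruits alpha-catenin, which reaches the actin cytoskeleton, while p120-catenin binds closer to the membrane and keeps the cadherin at the surface. E-cadherin is the main cadherin of the urothelium, P-cadherin is typical of basal epithelial cells, and N-cadherin and OB-cadherin are typical of mesenchymal cells. T-cadherin differs from all of these because a lipid anchor holds it in the membrane and it has no tail for catenins.

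Total counts per tumor ranged from 9295708 to 25370320, and 3 counts, the smallest level taken as measurable in a library, corresponded to between 0.106 and 1.33 CPM, which are counts scaled to library size with TMM factors. These floors cover counting error only. Tumor C102-M30 of BURP-25BaSq had the highest floor, since 61.9% of its counts fell on 1 ribosomal RNA gene. Over the 500 most variable genes, tumor C102-M1 of BURP-25BaSq was the 1 tumor of 24 nearer to another line than to its own (mean Pearson r of 0.921 with BURP-21BaSq and of 0.596 with the other tumors of its own line). Both tumors were kept, and the counts of called members that lead each comparison below were the same without both of them, except among the Ba/Sq lines, where the other counts are given. The keratins Krt5 and Krt14, which define basal cells, averaged 4130 ± 929 and 3731 ± 1029 CPM (SD, n = 18) over all Ba/Sq tumors and at most 0.471 CPM in BURP-19NE. Of 7 epithelial markers 4 were called lower in BURP-19NE and only 3 in BURP-16SR, beside 15.0% and 8.62% of all genes tested. Their summed level ran from 516 to 1126 CPM in BURP-16SR, from 314 to 426 CPM in BURP-19NE and from 5866 to 12107 CPM in the Ba/Sq tumors. The keratins not called in BURP-19NE, Krt18, Krt7 and Krt19, averaged 166, 161 and 44.2 CPM against 79.9, 269 and 403 CPM in the Ba/Sq tumors. Of the neuroendocrine markers, Ncam1 (306 ± 57.3 CPM, SD, n = 3) was present in BURP-19NE, whereas Insm1 and Neurod1 had no count in its 3 tumors and Chga, Chgb and Syp stayed at or below 0.541 CPM. Of 5 skeletal muscle markers 3 were tested, and all 3 were called higher in BURP-19NE, beside 9.33% of all genes tested. For each of the 3 the tumors overlapped the Ba/Sq tumors. The 5 markers summed to 0.890, 3.29 and 451 CPM in C80-M3, C80-M30 and C80-M1, and to between 0 and 24.8 CPM in the Ba/Sq tumors. The high level was thus that of C80-M1, and the part of these markers in the cadherin levels of BURP-19NE was not tested.

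The stretch before the start of 4 adhesion genes is shown because the results separate them: Ctnnb1 and Ctnnd1, members that lay within 1.74-fold of the Ba/Sq tumors in BURP-16SR and BURP-19NE, and the junction genes Jup and Epcam, which fell in both lines as Cdh1 did. Each is the 250 bases upstream of the RefSeq start in build GRCm38.p6, 5′ to 3′ along the gene's strand, at chr9:120933150-120933399 (+), chr2:84658978-84659227 (-), chr11:100397791-100398040 (-) and chr17:87635729-87635978 (+). Capitals mark CACCTG or its reverse complement CAGGTG, the E-box letters to which zinc-finger factors of the Snai and Zeb families are known to bind. Ctnnb1 and Ctnnd1 each had 2 RefSeq entries, of which only the one furthest upstream is shown. Of 32851 RefSeq windows of this length, 17.2% held the motif on either strand.
Ctnnb1: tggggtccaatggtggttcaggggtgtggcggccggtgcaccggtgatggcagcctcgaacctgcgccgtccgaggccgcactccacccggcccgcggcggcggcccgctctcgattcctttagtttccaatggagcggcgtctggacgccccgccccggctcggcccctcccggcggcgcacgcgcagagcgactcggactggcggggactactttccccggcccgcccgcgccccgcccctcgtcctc 
Ctnnd1: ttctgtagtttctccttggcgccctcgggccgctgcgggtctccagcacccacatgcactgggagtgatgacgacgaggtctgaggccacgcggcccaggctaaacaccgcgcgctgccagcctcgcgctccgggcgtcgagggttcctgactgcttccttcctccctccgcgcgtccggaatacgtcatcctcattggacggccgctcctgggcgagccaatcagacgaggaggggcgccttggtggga 
Jup: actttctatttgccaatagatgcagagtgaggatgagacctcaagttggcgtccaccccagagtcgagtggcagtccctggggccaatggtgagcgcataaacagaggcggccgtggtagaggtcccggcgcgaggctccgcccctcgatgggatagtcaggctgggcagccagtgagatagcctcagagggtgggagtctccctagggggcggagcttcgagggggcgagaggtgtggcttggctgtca 
Epcam: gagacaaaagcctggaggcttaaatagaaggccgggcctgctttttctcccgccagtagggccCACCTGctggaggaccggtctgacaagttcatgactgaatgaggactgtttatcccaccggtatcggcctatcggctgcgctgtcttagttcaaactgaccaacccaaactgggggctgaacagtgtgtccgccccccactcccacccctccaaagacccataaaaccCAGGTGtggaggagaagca
Among these windows Epcam held 2 matches and the other 3 held none, which says only that the letters are absent from these stretches. The window of the member Cdh6, not printed, held 0 matches. The table used held windows for 3 members, Cdh6, Ctnnb1 and Ctnnd1, and none for Cdh1, Cdh2, Cdh3, Cdh4, Cdh11, Cdh13 and Ctnna1.

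Cdh1 and Cdh3, which lie close together on chromosome 8 (GRCm38, from 106603351 to 106670246 and from 106510891 to 106557297, both on the plus strand), were high in the Ba/Sq tumors. In the 18 Ba/Sq tumors the lowest, median and highest level of Cdh1 were 202, 461 and 841 CPM. Those of Cdh3 were 66.1, 95.6 and 161 CPM. Both genes were thus read in every Ba/Sq tumor far above the floor, with at least 1340 counts for Cdh1 and 150 for Cdh3.

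In BURP-19NE Cdh1 stood at 0.544, 1.52 and 1.98 CPM, from 13 to 44 counts a tumor. Cdh3 stood at 0, 0.0837 and 0.271 CPM, with at most 6 counts. Neither gene overlapped its Ba/Sq range. The log2 fold change of BURP-19NE relative to the Ba/Sq tumors was −8.46 ± 0.63 (SE) for Cdh1 (adjusted p = 1.57e-09, edgeR) and −9.63 ± 0.61 for Cdh3 (adjusted p = 1.18e-10), or 352-fold and 792-fold lower. These 2 genes were the members called lower, where called means an adjusted p under 0.05 and a change of over 2-fold, among 9 members that passed the filter on low counts. Over all 20995 genes tested, 15.0% were called lower and 9.33% higher, and in 8.50% all BURP-19NE tumors were lower than every Ba/Sq tumor, as they were for these 2, and in 9.46% all were higher. Over the 9 members the median log2 fold change was −0.80, and over all genes it was −0.14.

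In BURP-16SR both epithelial cadherins were low as well. Cdh1 stood at 4.03, 5.31 and 6.54 CPM, from 58 to 85 counts. Cdh3 stood at 0.139, 0.843 and 4.69 CPM, with the highest value in tumor C74-MNT. Against the Ba/Sq tumors Cdh1 fell by 6.44 on the log2 scale (SE 0.54, adjusted p = 9.73e-09) and Cdh3 fell by 5.68 (SE 0.67, adjusted p = 1.99e-06), and again neither overlapped the Ba/Sq range. The size for Cdh3 rests on C74-MNT, without which it fell by 7.67, and in BURP-19NE it fell by 10.96 without C80-M30, the tumor with 6 counts. Cdh1 was higher in all 3 BURP-16SR tumors than in all 3 of BURP-19NE, by 2.07 ± 0.51 on the log2 scale (adjusted p = 0.0226). This difference missed the threshold when BURP-16SR tumor C73-M10, BURP-16SR tumor C74-MNT or BURP-19NE tumor C80-M3 was left out, with adjusted p = 0.0646, 0.0550 and 0.0757 from edgeR.

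Cdh2 separated BURP-16SR from every other tumor. It stood at 34.5, 54.8 and 42.9 CPM in tumors C73-M10, C74-MNT and P5 of BURP-16SR. The Ba/Sq tumors ran from 0 to 17.9 CPM with a median of 0.755 CPM, and BURP-19NE stood at 0.126, 0.105 and 0.632 CPM. No BURP-16SR tumor overlapped either group. Cdh2 rose by 4.19 ± 0.89 on the log2 scale against the Ba/Sq tumors (adjusted p = 0.00163) and by 7.30 ± 0.63 against BURP-19NE (adjusted p = 0.000953), or by 8.55 without BURP-19NE tumor C80-M30. With the counts of each line summed, so that lines and not tumors were compared, the first of these kept its size (4.12 ± 1.10) but not its call (adjusted p = 0.0989, edgeR).

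BURP-19NE, which had the lowest mean Cdh1 of the 8 lines, also had a lower mean of Cdh2 than every line but BURP-12BaSq, whose tumors stood between 0.184 and 0.338 CPM. The log2 fold change of Cdh2 in BURP-19NE relative to the Ba/Sq tumors was −3.09 ± 1.56 (adjusted p = 0.132, edgeR) and did not pass the threshold, which it passed with DESeq2 (adjusted p = 0.0221). At 2, 3 and 14 counts a tumor, the level of Cdh2 in BURP-19NE lay at or near the floor.

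**Figure D1:**
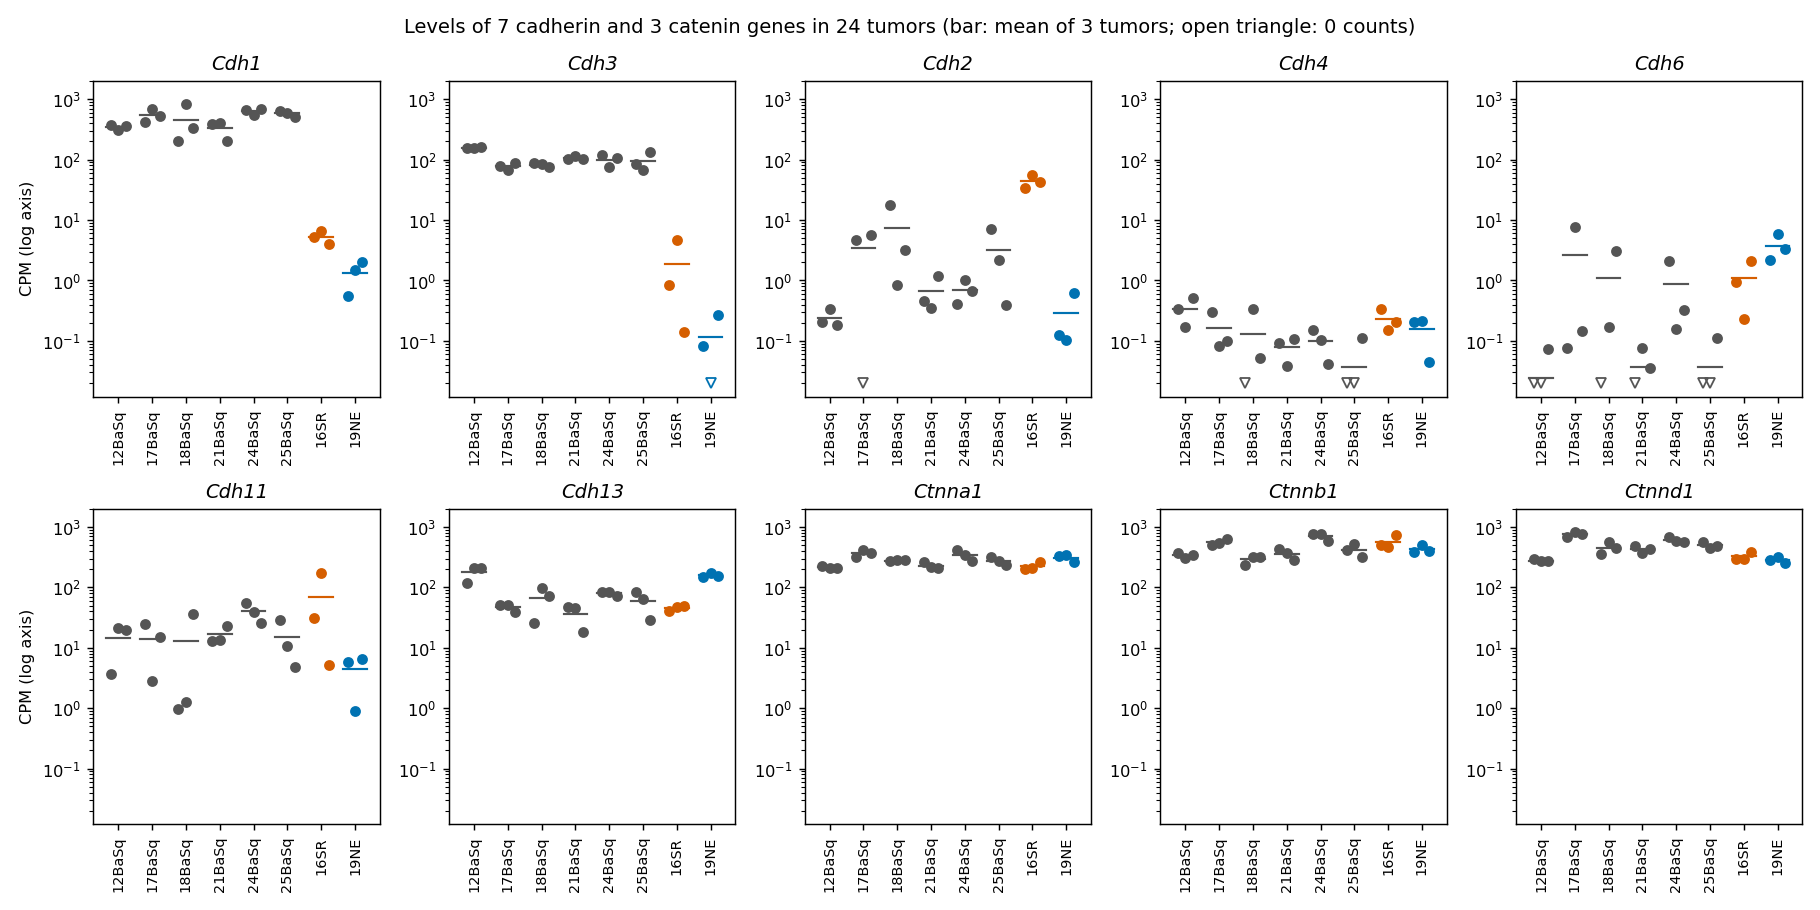
Level of each member in CPM (log axis) in the 24 tumors by line, 3 points a line, with the line's mean as a bar and tumors with 0 counts as open triangles at the bottom. Cdh1 and Cdh3 were low in both BURP-16SR (orange) and BURP-19NE (blue), Cdh2 was high in BURP-16SR alone of these 2, and the 3 catenins lay between 199 and 820 CPM in all tumors.

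Of the other mesenchymal cadherin, OB-cadherin, no such even level was seen. Cdh11 stood at 31.5, 171 and 5.21 CPM in BURP-16SR tumors C73-M10, C74-MNT and P5, so that the highest of the 24 tumors and a tumor below the Ba/Sq median of 17.4 CPM belonged to the same line. In the Ba/Sq tumors it ran from 0.955 to 55.3 CPM, and in BURP-19NE it stood at 5.86, 0.890 and 6.54 CPM. The log2 fold change against the Ba/Sq tumors was 1.95 ± 0.77 in BURP-16SR (adjusted p = 0.0664) and −2.07 ± 0.97 in BURP-19NE (adjusted p = 0.107), and neither passed. Without BURP-16SR tumor P5 the first passed (2.41 ± 0.79, adjusted p = 0.0437, edgeR), and so it did without BURP-24BaSq tumor C81-M1 (adjusted p = 0.0438). Without C74-MNT it was 0.03 ± 0.996 (adjusted p = 0.989, edgeR), so that its size rests on that tumor. Between BURP-16SR and BURP-19NE the log2 difference of Cdh11 was 4.08 ± 1.34 (adjusted p = 0.0559, edgeR). It was 2.15 without C74-MNT (adjusted p = 0.154) and passed in 5 of 11 alternatives, among them without P5 (4.58, adjusted p = 0.0125) and with DESeq2 (adjusted p = 0.00976).

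The 3 BURP-16SR tumors stood in the same order by fibroblast markers as by Cdh11, and in another order by Cdh2. The summed level of 9 fibroblast markers, among them the collagens Col1a1, Col1a2 and Col3a1, was 7513 CPM in C73-M10, 20025 CPM in C74-MNT and 596 CPM in P5, against 213 to 9798 CPM in the Ba/Sq tumors and 1166 to 1901 CPM in BURP-19NE. The median Ba/Sq tumor stood at 1111 CPM, above tumor P5. All 9 fibroblast markers were detected in each BURP-16SR tumor, and their median log2 fold change was 2.27. In BURP-16SR 5 of the 9 were called higher, beside 10.5% of all genes tested. Smooth muscle markers stood in the same order, at 91.8, 272 and 44.3 CPM in C73-M10, C74-MNT and P5, with 3 of 5 called higher in BURP-16SR. All 5 mesenchymal markers, Cdh2 among them, were called higher. The part of these cells in the levels of Cdh2 and Cdh11 was not tested.

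**Figure D2:**
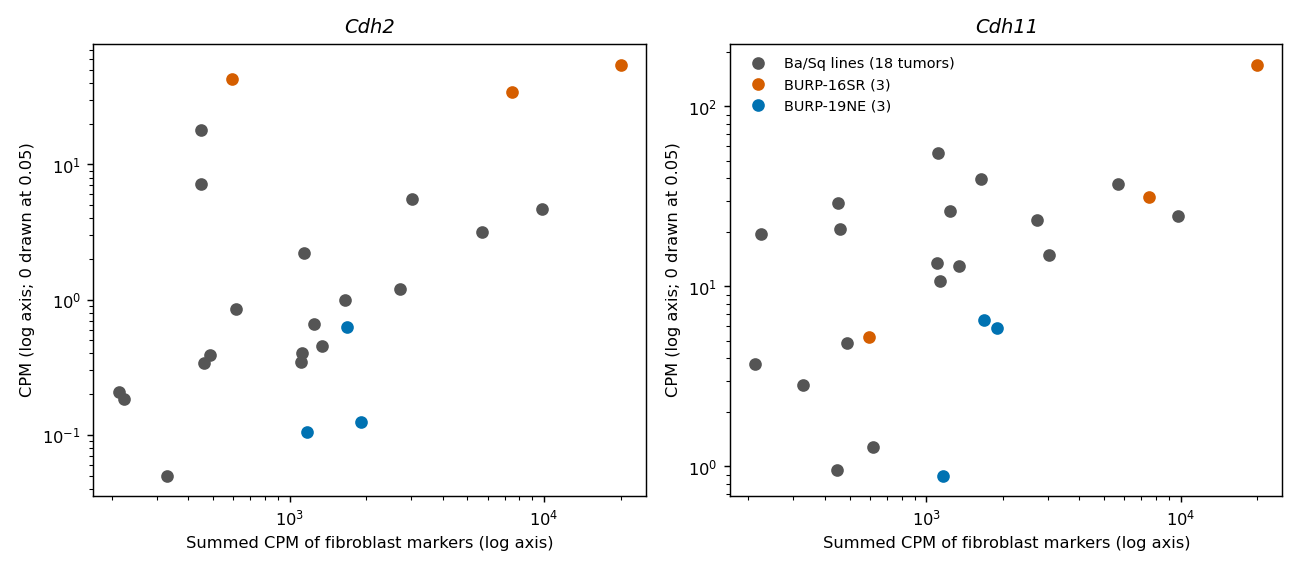
Cdh2 (left) and Cdh11 (right) in CPM against the summed CPM of 9 fibroblast markers, both axes logarithmic, 1 point a tumor, with 0 drawn at 0.05. The 3 BURP-16SR tumors (orange) lie at 34.5 to 54.8 CPM of Cdh2 across fibroblast sums from 596 to 20025 CPM, while their Cdh11 runs from 5.21 to 171 CPM in the same order as the sums.

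Cdh13 was the member with the clearest level in BURP-19NE. It stood at 146.9, 173.6 and 151.8 CPM there and at 41.3, 48.0 and 49.6 CPM in BURP-16SR, 2 tight groups that did not overlap. BURP-16SR was lower by 1.67 on the log2 scale (SE 0.13, adjusted p = 0.000781). Against the Ba/Sq tumors, whose lowest, median and highest level were 18.3, 68.2 and 212 CPM, BURP-19NE gave a log2 fold change of 1.04 ± 0.48 (adjusted p = 0.0974) and BURP-16SR one of −0.67 ± 0.55 (adjusted p = 0.392). The range of the Ba/Sq tumors at its upper end was BURP-12BaSq, whose tumors stood at 116, 208 and 212 CPM. Without that line the log2 fold change of BURP-19NE was 1.44 ± 0.34 (adjusted p = 0.00311, edgeR).

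Cdh6 was detected weakly. BURP-19NE held 2.18, 5.87 and 3.29 CPM, from 52 to 112 counts. BURP-16SR held 0.927, 0.231 and 2.09 CPM, below all of BURP-19NE. Of the 18 Ba/Sq tumors 6 had no count, and the median was 0.0765 CPM, although tumor C165-M30 of BURP-17BaSq reached 7.76 CPM. The log2 fold change of BURP-19NE relative to the Ba/Sq tumors was 2.29 ± 1.25 (adjusted p = 0.164) and reached 3.24 ± 1.06 without C165-M30 (adjusted p = 0.0229, edgeR). Cdh4 did not exceed 0.515 CPM in any tumor, with at most 14 counts, did not pass the filter in any comparison of the full set of tumors, and is given no fold change.

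For BURP-16SR against the Ba/Sq tumors 9 members were tested. Cdh2 was called higher and Cdh1 and Cdh3 lower, and these 3 were also the members whose tumors did not overlap. Over the 21028 genes tested, 10.5% were called higher and 8.62% lower, and all BURP-16SR tumors were above the Ba/Sq tumors in 5.83% and below them in 5.57%. For BURP-16SR against BURP-19NE 8 members were tested, of which Cdh1 and Cdh2 were called higher and Cdh13 lower, while Cdh3 and Cdh4 did not pass the filter. Here 14.8% of the 17556 genes tested were called higher, 8.86% lower, while all BURP-16SR tumors were the higher ones in 23.4% and the lower ones in 28.3%. The tumors did not overlap for 4 members, the called 3 and Cdh6. The median log2 fold change of the members was −0.28 in the first comparison and 0.39 in the second, beside −0.03 and 0.06 over all genes. No member was called higher in BURP-19NE relative to the Ba/Sq tumors by edgeR as fitted here or by DESeq2 (0 of 9 by each), and 1 of the 9, Cdh13, was higher at an unadjusted p under 0.05. With all 24 tumors in 1 edgeR fit Cdh6 and Cdh13 were called higher (adjusted p = 0.00147 and 0.00161).

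**Figure D3:**
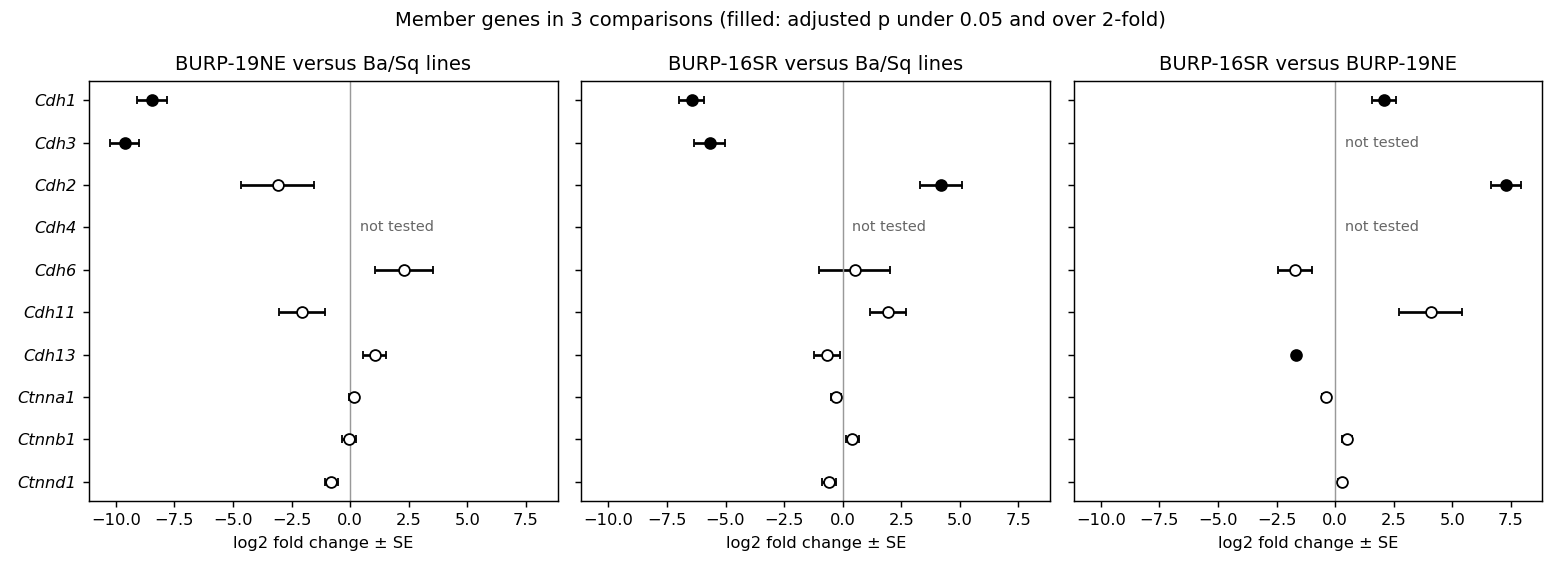
Log2 fold change of the members, with the standard error from edgeR as a bar, in BURP-19NE relative to the Ba/Sq tumors, BURP-16SR against the Ba/Sq tumors and BURP-16SR against BURP-19NE, filled where called. Cdh1 and Cdh3 lie far to the left in the first 2 panels, Cdh2 is filled on the right in the last 2, and the catenins lie between −0.80 and 0.50 in all 3.

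The catenins, whose partners at the membrane are the cadherins above, were not called in any of the 3 comparisons. Ctnnb1 stood at 391, 495 and 393 CPM in BURP-19NE and at 496, 473 and 735 CPM in BURP-16SR, within the Ba/Sq range of 238 to 776 CPM. Its log2 fold change against the Ba/Sq tumors was −0.04 ± 0.29 in BURP-19NE (adjusted p = 0.927) and 0.41 ± 0.29 in BURP-16SR (adjusted p = 0.318). Ctnna1 stood at 331, 339 and 261 CPM in BURP-19NE and at 199, 208 and 265 CPM in BURP-16SR, beside 205 to 419 CPM in the Ba/Sq tumors. Its log2 fold changes were 0.14 ± 0.20 (adjusted p = 0.606) and −0.28 ± 0.21 (adjusted p = 0.351). A change of 2-fold lies more than 2 standard errors from each of these estimates except that of Ctnnb1 in BURP-16SR.

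Ctnnd1 was the catenin with lower values in both lines. It stood at 284, 313 and 257 CPM in BURP-19NE and at 298, 296 and 382 CPM in BURP-16SR. The Ba/Sq median was 481 CPM, with 820 CPM at the top and 268 CPM, in BURP-12BaSq, at the bottom. The log2 fold change was −0.80 ± 0.29 in BURP-19NE (adjusted p = 0.0400, short of the 2-fold needed for a call) and −0.56 ± 0.30 in BURP-16SR (adjusted p = 0.175). BURP-19NE overlapped the Ba/Sq tumors through BURP-12BaSq alone. BURP-16SR lay above all tumors of BURP-12BaSq and overlapped tumors of BURP-18BaSq and BURP-21BaSq.

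Levels of different genes can be compared only per length, so each was divided by the length of its annotated exons. On this scale of CPM per kb the 7 cadherins summed to 139 ± 38.5 (SD, n = 18) in the Ba/Sq tumors, to 19.1 ± 11.9 in BURP-16SR and to 15.3 ± 1.21 in BURP-19NE (SD, n = 3). In every Ba/Sq tumor the sum exceeded the length-scaled level of Ctnnb1, by 1.04-fold to 3.51-fold, and in BURP-16SR and BURP-19NE it was at most 0.360 of it (0.6004 with the longest transcripts described below). Cdh1 made up 74.4% ± 10.2 of the sum in the Ba/Sq tumors and Cdh3 18.5% ± 7.79. In BURP-19NE Cdh13, the cadherin without a catenin-binding tail, made up 91.5% ± 2.26.

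In BURP-16SR the leading one of the 7 differed between tumors. Cdh2 made up 32.9%, 20.7% and 46.3% of the sum in C73-M10, C74-MNT and P5. Cdh11 made up 27.2%, 58.5% and 5.09% and Cdh13 28.30%, 13.02% and 38.44% in the same order. Cdh1 kept between 4.35% and 8.93%, below Cdh2 in each tumor. With the longest annotated transcript in place of all exons the length of Cdh13 was 4565 and not 11233 bases, that of Cdh11 5647 and not 8904, and that of Cdh2 4843 and not 8066. The sums were then 36.1 in BURP-19NE, 33.3 in BURP-16SR and 154 in the Ba/Sq tumors, and the share of Cdh13 became 95.4%, 35.9% and 11.0%.

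**Figure D4:**
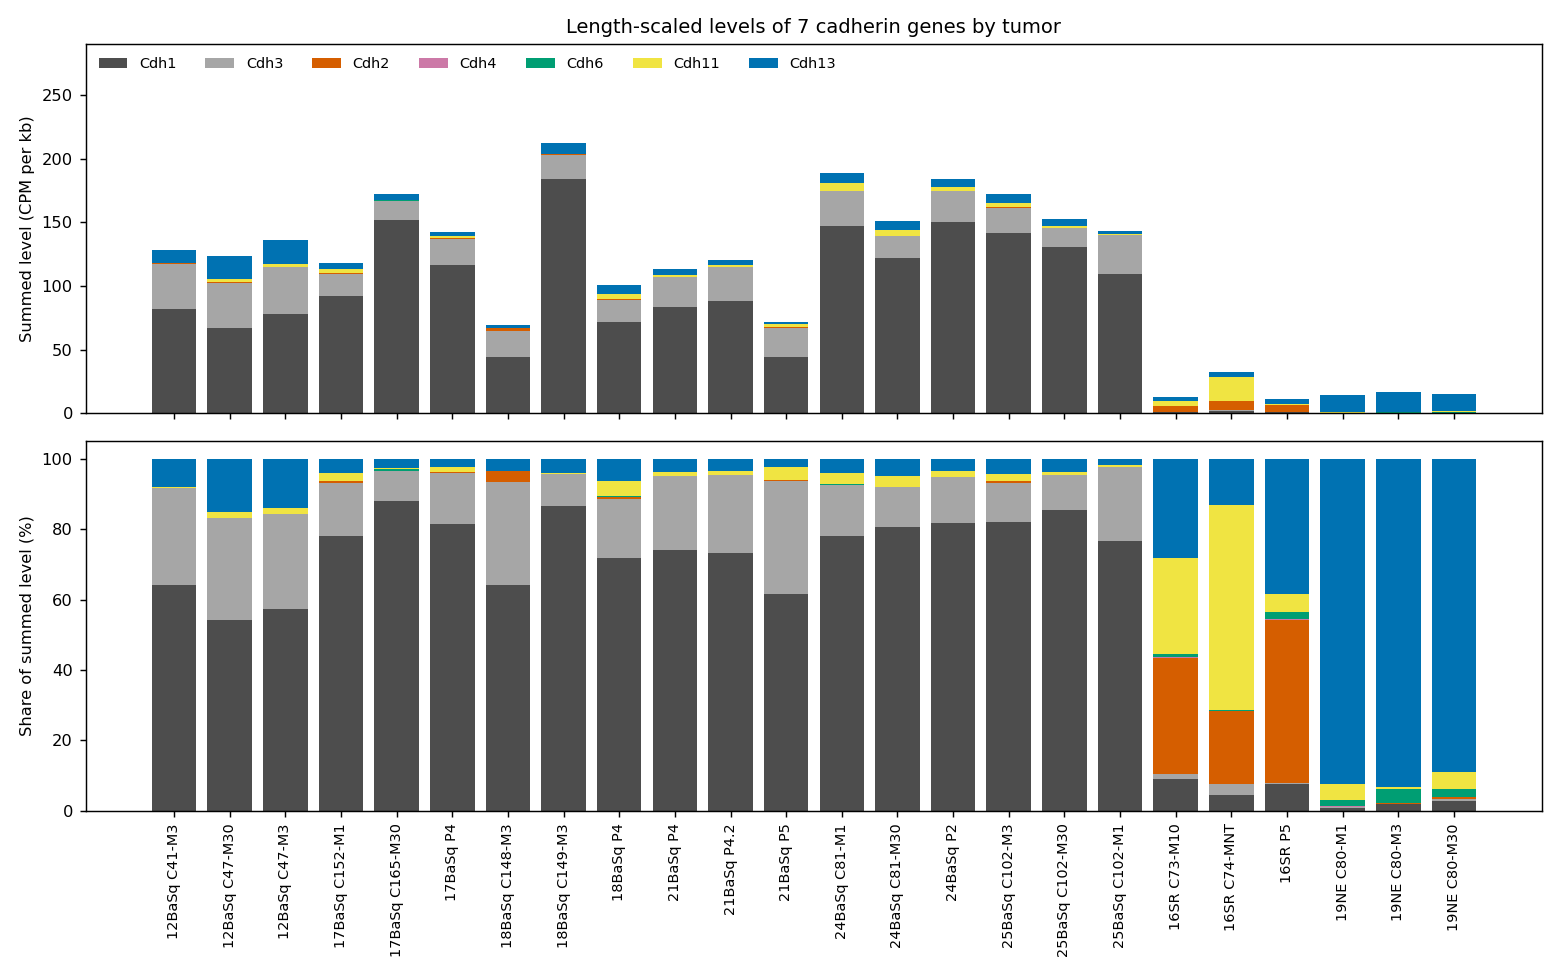
Length-scaled levels of the 7 cadherins in each of the 24 tumors, stacked as CPM per kb of exon (top) and as a share of their sum in percent (bottom). The 18 Ba/Sq tumors reach 69.5 to 212 CPM per kb, mostly Cdh1 (dark grey) and Cdh3 (light grey), the BURP-16SR tumors 11.5 to 32.8 with Cdh2, Cdh11 and Cdh13, and the BURP-19NE tumors 14.2 to 16.6, nearly all Cdh13 (blue).

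Other cadherins, from a list of 15, were called in both lines. In BURP-19NE 3 of 7 tested were called higher, beside 9.33% of all genes tested, and no other of the 7 passed. Cdh10, a neural type II cadherin, averaged 33.5 ± 12.9 CPM (SD, n = 3) against 0.495 ± 1.10 CPM over the Ba/Sq tumors (log2 fold change 6.01 ± 0.94, adjusted p = 4.61e-05). Cdh24, a type II cadherin with a catenin-binding tail, averaged 31.9 ± 4.03 against 4.28 ± 1.75 CPM (2.91 ± 0.29, adjusted p = 1.38e-07). Cdh12, another neural cadherin, averaged 5.20 ± 2.62 against 0.195 ± 0.462 CPM (4.76 ± 1.04, adjusted p = 0.00137). Summed per length, all 22 cadherins reached 33.7 CPM per kb in BURP-19NE, 43.7 in BURP-16SR and 147 in the Ba/Sq tumors. This sum was at most 0.477 of the length-scaled level of Ctnnb1 in BURP-19NE and 0.659 in BURP-16SR, and at least 1.09 in the Ba/Sq tumors. Cdh13 held 41.8% of the sum in BURP-19NE, Cdh24 27.1%, the endothelial Cdh5 13.2% and Cdh10 9.78%.

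In BURP-16SR 3 of 7 other cadherins were called higher, beside 10.5% of all genes tested. Cdh17, an intestinal cadherin with a short tail, averaged 10.7 ± 11.0 against 0.262 ± 0.208 CPM (log2 fold change 5.46 ± 0.48, adjusted p = 2.25e-08) and was above the Ba/Sq tumors in all 3 tumors. Cdh9 averaged 2.38 ± 2.54 against 0.364 ± 1.26 CPM (3.81 ± 1.28, adjusted p = 0.0330) and overlapped them. Cdh5 (VE-cadherin), the cadherin of endothelium, averaged 80.6 ± 24.8 against 27.2 ± 23.0 CPM (1.63 ± 0.54, adjusted p = 0.0321, edgeR) and made up 44.4% of the sum of 22. Cdh2 made up 12.9% of that sum. The 8 endothelial markers, Cdh5 among them, summed to 248, 364 and 353 CPM in BURP-16SR, to 34.1 to 417 CPM in the Ba/Sq tumors and to 56.7 to 74.4 CPM in BURP-19NE, and their part in the level of Cdh5 was not tested.

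Of 18 catenin homologues and adhesion partners, 16 were tested in each line. In BURP-19NE 6 were called lower and 2 higher, and in BURP-16SR 9 were called lower and 1 higher. Over all genes tested 15.0% were called lower and 9.33% higher in BURP-19NE, and 8.62% and 10.5% in BURP-16SR. Jup (plakoglobin), the catenin shared with desmosomes, averaged 12.2 ± 5.34 CPM in BURP-19NE and 12.1 ± 1.35 CPM in BURP-16SR (SD, n = 3) against 669 ± 257 CPM in the Ba/Sq tumors (SD, n = 18). Its log2 fold changes were −5.76 ± 0.53 (adjusted p = 4.52e-08) and −5.71 ± 0.52 (adjusted p = 3.50e-08). Its homologue Ctnnb1, by contrast, was within 1.33-fold of the Ba/Sq tumors in both. Epcam, an epithelial adhesion molecule, had no count in BURP-19NE, at least 776-fold lower than the Ba/Sq mean of 108 CPM with the floor of 3 counts a library, and averaged 0.366 ± 0.195 CPM in BURP-16SR (log2 fold change −8.13 ± 0.87, adjusted p = 4.50e-07). Nectin4, a nectin of epithelial junctions, averaged 1.45 ± 0.587 and 1.998 ± 0.596 CPM against 93.6 ± 50.4 CPM (−5.96 ± 0.78, adjusted p = 5.23e-06, and −5.47 ± 0.76, adjusted p = 1.82e-05).

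Between the lines 15 partners were tested, and 1 was called higher in BURP-16SR (Nectin3) and 4 lower. Over all genes tested 14.8% were called higher and 8.86% lower. The 3 with the largest differences are given. Ctnnd2 (delta-catenin), the neural relative of p120-catenin, averaged 40.4 ± 9.48 CPM in BURP-19NE and 0.672 ± 0.757 CPM in BURP-16SR (log2 difference −5.80 ± 0.73 for BURP-16SR minus BURP-19NE, adjusted p = 0.00250). Afdn (afadin), which links nectins to actin, averaged 261 ± 28.4 and 76.6 ± 17.5 CPM (−1.68 ± 0.19, adjusted p = 0.00187). Vcl (vinculin), which binds stretched alpha-catenin, averaged 483 ± 39.3 and 173 ± 21.8 CPM (−1.39 ± 0.15, adjusted p = 0.00156).

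Factors listed here as repressors of Cdh1, whether direct or not, were then read beside it. Of 10, 5 were called higher and 1 lower in each line, and the one lower in both was Snai2. Over all genes tested 9.33% were called higher and 15.0% lower in BURP-19NE, and 10.5% and 8.62% in BURP-16SR. Snai2 (Slug), which basal cells also express, averaged 47.4 ± 19.4 CPM in the Ba/Sq tumors, 0.349 ± 0.261 CPM in BURP-19NE (log2 fold change −7.00 ± 0.69, adjusted p = 1.31e-07) and 4.87 ± 1.06 CPM in BURP-16SR (−3.21 ± 0.48, adjusted p = 3.82e-05). Zeb1, a zinc-finger repressor, averaged 13.98 ± 11.7 CPM in the Ba/Sq tumors, 123 ± 7.92 CPM in BURP-19NE (3.14 ± 0.51, adjusted p = 8.24e-05) and 101.5 ± 13.6 CPM in BURP-16SR (2.93 ± 0.52, adjusted p = 0.000265), above every Ba/Sq tumor in both. Foxc2, a forkhead factor, was at 22.4 ± 3.25 CPM in BURP-19NE and 0.915 ± 0.210 CPM in BURP-16SR (log2 difference −4.51 ± 0.27, adjusted p = 0.000441). Snai1 (Snail) was at 9.09 ± 5.72 CPM in BURP-16SR and 0.459 ± 0.354 CPM in BURP-19NE (4.38 ± 0.83, adjusted p = 0.00913). Zeb2, Twist1 and Tcf4 were called higher in both lines as well, and Zeb2 was lower in BURP-16SR than in BURP-19NE (log2 difference −1.28, adjusted p = 0.00718, edgeR).

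Of 12 factors that maintain epithelial genes, 10 were called lower in each line, beside 15.0% of all genes in BURP-19NE and 8.62% in BURP-16SR. Those not called were Foxa1 in both lines, Klf5 in BURP-19NE and Klf4 in BURP-16SR. Esrp1, a splicing regulator of epithelial isoforms, had no count in BURP-19NE, at least 1243-fold below the Ba/Sq mean of 173 CPM, and averaged 0.0281 CPM in BURP-16SR. Grhl3, a grainyhead factor of barrier epithelia, had no count in either line and was at least 480-fold lower in BURP-19NE and 290-fold lower in BURP-16SR. Trp63 (p63), the master factor of basal cells, averaged 393 ± 154 CPM in the Ba/Sq tumors and 0.133 ± 0.119 CPM in BURP-16SR (log2 fold change −11.42 ± 0.71, adjusted p = 1.12e-10). Elf3, an epithelial Ets factor, averaged 147.7 ± 116 CPM in the Ba/Sq tumors and 0.0139 ± 0.0242 CPM in BURP-19NE. Klf4 was at 137 ± 82.5 CPM in BURP-16SR and 13.9 ± 2.41 CPM in BURP-19NE (log2 difference 3.38 ± 0.42, adjusted p = 0.00242). Over these 12 genes the median log2 fold change was −7.45 in BURP-19NE and −7.10 in BURP-16SR.

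**Figure D5:**
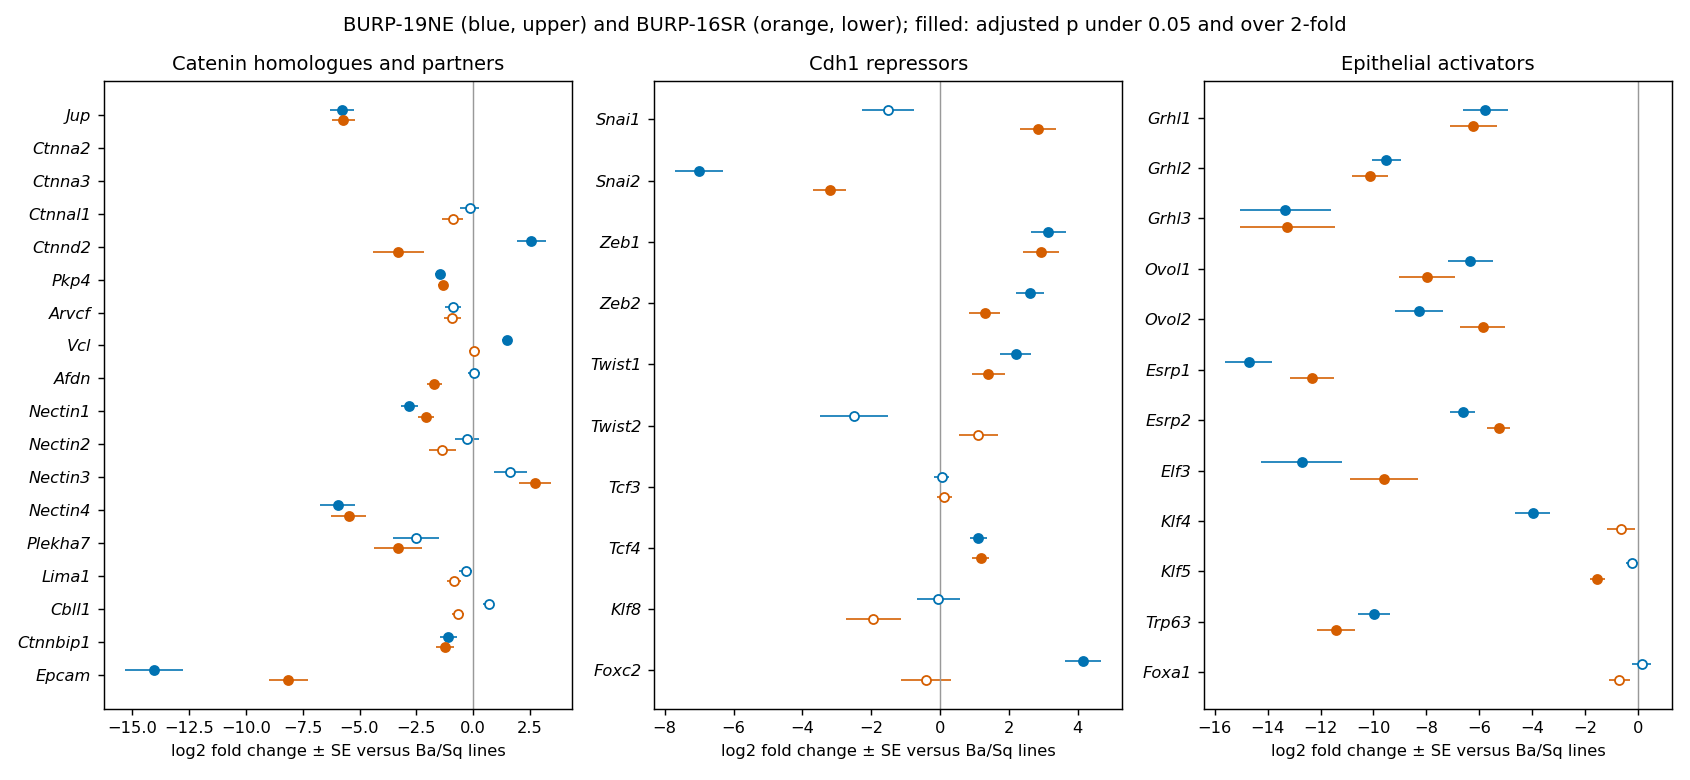
Log2 fold change with standard error against the Ba/Sq tumors for catenin homologues and partners (left), Cdh1 repressors (middle) and epithelial activators (right), in BURP-19NE (blue, upper of each pair) and BURP-16SR (orange, lower), filled where called. Both comparisons share the 18 Ba/Sq tumors, genes not tested have no point, and the fitted values of Epcam, Esrp1, Grhl3 and Ovol2 in lines without a count are no bounds. Jup, Nectin4 and Epcam lie low in both lines, and Snai2 lies on the opposite side of 0 from Zeb1 in both.

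Targets of beta-catenin with the Tcf and Lef factors were read next. Of 12 genes 10 were tested, and 1 was called higher and 2 lower in BURP-19NE, and 2 higher and 1 lower in BURP-16SR, beside 9.33% and 15.0% of all genes in the first line and 10.5% and 8.62% in the second. Axin2, the negative-feedback gene most used as a readout of this signal, gave a log2 fold change of −0.69 in BURP-19NE (adjusted p = 0.249) and 0.22 in BURP-16SR (adjusted p = 0.712). Cd44, an adhesion receptor for hyaluronan, averaged 209 ± 9.61 CPM in BURP-19NE, 538 ± 141 CPM in the Ba/Sq tumors and 1140 ± 319 CPM in BURP-16SR, and it was called lower in the first line (−1.34 ± 0.23, adjusted p = 0.000158) and higher in the second (1.15 ± 0.21, adjusted p = 0.000306). Bmp4, a secreted growth factor, averaged 13.9 ± 5.43 CPM in BURP-19NE against 2.24 ± 2.89 CPM (2.64 ± 0.92, adjusted p = 0.0307). Rnf43, a receptor-degrading ligase of the pathway, averaged 1.09 ± 0.780 CPM in BURP-16SR against 15.0 ± 11.5 CPM (−3.68 ± 1.25, adjusted p = 0.0352). Notum, a secreted Wnt inhibitor, had no count in BURP-19NE and was at least 13.2-fold below the Ba/Sq mean of 1.83 ± 2.96 CPM, although 2 Ba/Sq tumors had no count either. Lgr5, a receptor of stem cells, was called higher in BURP-16SR by 2.49 ± 0.72 on the log2 scale (adjusted p = 0.0149, edgeR). Its level was uneven there, at 5.73 ± 6.97 CPM against 1.04 ± 1.08 CPM, and overlapped the Ba/Sq tumors.

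The genes beside Cdh1 were read for a change of the whole region. Of the 5 protein-coding genes on each side, Cdh3 was the gene called in BURP-19NE. Utp4, a ribosome assembly gene, was higher by 0.97 ± 0.25 on the log2 scale in BURP-19NE, short of the 2-fold needed, and Zfp90 gave −0.98 ± 0.27 in BURP-16SR. Has3, a hyaluronan synthase, was called lower in BURP-16SR with Cdh3 (8.71 ± 3.12 against 99.6 ± 78.7 CPM, log2 fold change −3.43 ± 0.95) and gave −1.90 ± 0.84 in BURP-19NE, where it did not pass. The gene 6030452D12Rik did not pass the filter on low counts.

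Among the genes whose level was most like that of Cdh1 over the 24 tumors, by Pearson's r of log2 CPM, were Esrp2 (r = 0.991), a splicing regulator and paralogue of Esrp1, Fam83b (0.988), Trim29 (0.982) and S100a14 (0.982). Those most like Cdh2 were Mme (0.894), a cell-surface peptidase, Dcbld2 (0.874), Nova1 (0.869), a splicing regulator of neurons, Adam19 (0.866) and Sema6b (0.865). These values rest on the steps between the Ba/Sq lines, BURP-16SR and BURP-19NE and describe the same 24 libraries.

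Among the 6 Ba/Sq lines 9 members were tested for any difference between lines, and 6 were called: Cdh3, Cdh2, Cdh6, Cdh13, Ctnnb1 and Ctnnd1. Of all 20523 genes tested, 39.4% were called, so such differences were common. Without both C102-M1 and C102-M30 the count was 5, since Cdh6 was no longer called. Cdh1 was not called, with a largest log2 difference between line means of 0.96 (adjusted p = 0.177). Cdh11 was not called either (1.59, adjusted p = 0.623).

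The catenins varied with small errors. Ctnnd1 had the smallest adjusted p of the members (0.000374, edgeR) with a largest log2 difference of 1.46, between BURP-17BaSq at 687, 820 and 774 CPM and BURP-12BaSq at 290, 268 and 274 CPM. Ctnnb1 differed by 1.28 (adjusted p = 0.00144), with BURP-24BaSq at 776, 751 and 588 CPM and BURP-18BaSq at 238, 314 and 316 CPM. Ctnna1 gave an adjusted p of 0.00613 with a largest difference of 0.78, short of 2-fold. Cdh13 differed by 2.28 (adjusted p = 0.00733) and Cdh3 by 1.01 (adjusted p = 0.0128). Cdh3 lost its call without BURP-12BaSq tumor C47-M3, and then Cdh2 and Cdh6 did as well, which left 3 members, Cdh13, Ctnnb1 and Ctnnd1. Without either other tumor of BURP-12BaSq Cdh2 and Cdh6 lost theirs, which left 4.

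When each Ba/Sq line was set against the other 5, 3 members were called, all higher, each in 1 line, and without both C102-M1 and C102-M30 there were 4 calls, with Cdh4 in BURP-12BaSq added. Cdh13 was higher in BURP-12BaSq by 1.68 ± 0.31 on the log2 scale (adjusted p = 0.00193), where 11.1% of all genes were called. Cdh6 was higher in BURP-17BaSq by 4.05 ± 1.07 (adjusted p = 0.0242), where 6.18% were called, but its tumors stood at 0.0762, 7.76 and 0.147 CPM, so that the value rests on C165-M30, without which it was not called. Cdh2 was higher in BURP-18BaSq by 2.76 ± 0.79 (adjusted p = 0.0159), where 15.5% were called, with tumors at 17.9, 0.853 and 3.19 CPM. Without C148-M3 it was not called. No member was called in BURP-21BaSq, BURP-24BaSq and BURP-25BaSq by edgeR, where 2.86%, 7.79% and 2.59% of all genes were, while DESeq2 also called Cdh2 in BURP-12BaSq and Cdh13 in BURP-21BaSq and did not call Cdh6 in BURP-17BaSq.

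Male and female Ba/Sq lines were compared over 8 members, and none was called by edgeR or DESeq2 or had an unadjusted p under 0.05 (0 of 8 in each direction), beside 2.31% of 17922 genes called. Cdh1 averaged 451 ± 203 CPM in the tumors of the male lines and 517 ± 162 CPM in those of the female lines (SD, n = 9), a log2 difference of −0.19 ± 0.26. Cdh13 came nearest, at 97.3 ± 69.9 and 58.7 ± 25.0 CPM (0.73 ± 0.39, adjusted p = 0.269, edgeR). Sex was compared across 3 lines a sex, so that sex and the lines' own histories cannot be told apart.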

How the data were processed

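RNA sequencing of 24 tumors from 8 BURP lines gave expected counts per gene. The authors aligned reads with STAR (2.6.0a) to GRCm38 and estimated counts with RSEM (1.3.1), and the deposited expected counts, 12.5% of them not whole, were rounded here. Library totals and the level of 3 counts, which cover counting error only, are given with the results. Groups came from the sample labels. Genes passed edgeR's filterByExpr, were scaled by TMM and tested with the quasi-likelihood test of edgeR (4.0.16, R 4.3.3) within each comparison. A call needed a Benjamini-Hochberg adjusted p below 0.05 over all genes tested and an absolute log2 fold change above 1. Levels are CPM with TMM over 24 tumors, and length-scaled levels divide by GENCODE exon lengths. Genes named outside the members were taken from the 3 called genes of each list with the largest absolute change in each comparison, the 5 genes most like Cdh1 and Cdh2, and the 5 protein-coding genes on each side of Cdh1, and Axin2 and the markers were added after their values were seen. The members and lists were chosen with earlier results of these data known. On simulated data 100%, 99.5% and 95% of 200 changed genes were found in the comparisons of BURP-19NE with Ba/Sq, BURP-16SR with Ba/Sq and BURP-16SR with BURP-19NE, and 98.5% among the 6 Ba/Sq lines, with 6.1%, 2.93%, 5.47% and 4.37% of the calls false. In the simulation only well-counted genes were changed, all by the same fold, with the same dispersion for every gene. The simulated tumors shared the same mean otherwise, so the lines did not differ as the real ones do. These rates therefore do not cover genes near the floor or groups made of differing lines. The comparisons of single lines and of the sexes were not simulated. DESeq2 (1.42.0), other filters and scalings, left-out tumors and lines and summed lines were tried as alternatives. Symbols matched the annotation for 99.8% of gene identifiers. Some genes that this rule or the marker lists name are not reported here.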

Additional observations from a re-analysis of the deposited data

Results flagged for a closer look

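Among the male Ba/Sq tumors Cdh2 stood at 17.9 CPM in C148-M3 of BURP-18BaSq, far from the next tumor at 5.59 CPM, and Cdh6 at 7.76 CPM in C165-M30 of BURP-17BaSq, far from the next at 3.08 CPM. Among the female Ba/Sq tumors Cdh2 stood at 7.12 CPM in C102-M3 of BURP-25BaSq, with the next at 2.22 CPM, and Cdh6 at 2.13 CPM in C81-M1 of BURP-24BaSq, with the next at 0.329 CPM. In each case the gap to the nearest tumor exceeded Dixon's 95% critical value of 0.493 of the range for 9 tumors. Of 20 such groups 4 were picked out, while chance picks out about 1 in 20 for independent normal values. These are low CPM of tumors from 3 lines a sex, so the count is not read against that rate.

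The change against the Ba/Sq tumors differed between BURP-16SR and BURP-19NE for 3 members, tested directly by edgeR between the lines. The log2 difference, BURP-16SR minus BURP-19NE, was 2.07 for Cdh1, 7.30 for Cdh2 and −1.67 for Cdh13, and for each the 3 tumors of 1 line lay outside the range of the other.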

How the results depend on the processing

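Over 34 alternatives the number of members called in BURP-19NE against the Ba/Sq tumors ran from 1 to 4 and stayed within 1.5 times the reported 2 in 31. It was 4 with the DESeq2 test, which added Cdh2 and Cdh11, 4 with all 24 tumors in 1 fit, which added Cdh6 and Cdh13, and 1 when 10 counts were required in every tumor, a filter that removes Cdh3. In BURP-16SR against the Ba/Sq tumors it ran from 1 to 4 over 34 alternatives, with 1 under the same filter. For BURP-16SR against BURP-19NE it was 5 with all 24 tumors in 1 fit and ran from 2 to 6 when 1 tumor was left out, the 6 being without BURP-16SR tumor P5. Among the 6 Ba/Sq lines it ran from 3 to 7 when 1 tumor was left out. For single Ba/Sq lines it was 1 with 10 counts required and ran from 2 to 5 when 1 tumor was left out, with 5 without BURP-17BaSq tumor C165-M30 and 5 without BURP-18BaSq tumor P4. Male and female lines gave 0 calls under all 30 alternatives. The sign of Ctnnb1 in BURP-19NE, −0.04 on the log2 scale, turned to 0.0071 with all 24 tumors in 1 fit, to 0.10 without BURP-24BaSq, and to 0.018 and 0.020 without BURP-24BaSq tumors C81-M30 and C81-M1, within a range from −0.20 to 0.020 over the tumors left out. That of Cdh6 in BURP-16SR turned to −0.45 without tumor P5 and otherwise reached up to 1.49 when 1 tumor was left out. Cdh13 in BURP-19NE passed the threshold without BURP-12BaSq tumor C47-M30 (adjusted p = 0.0494, edgeR) or C47-M3 (adjusted p = 0.0462). The causes were not tested. The leave-out of 1 tumor and the sums per line keep the same 8 lines, of which BURP-16SR and BURP-19NE stand alone for their kind. No paired analysis was possible because the replicate numbers only name tumors and pair none across lines.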
